A study of Mus musculus with 4 samples.

Results

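Keratins are the intermediate filament proteins of epithelial cells, and 53 protein-coding keratin genes were followed here among the 54532 genes of 4 RNA sequencing libraries from irradiated and unirradiated mouse mammary tumours. The members were all protein-coding rows whose symbol is Krt, a number and at most 1 lower-case letter. They comprised 5 simple, 3 basal, 17 squamous, 7 inner root sheath, 17 hair and nail, and 4 other keratins. In all, 28 encode type I proteins and 25 type II proteins. On mm10, 27 members lie in the type I cluster on chromosome 11 and 26 on chromosome 15, where Krt18 is a type I gene beside the type II cluster. The row named Krt74 is annotated as a pseudogene, had 0 counts and was left out.

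The 4 libraries came from C57BL/6 mice labelled MMTV-PyMT and Dll1 mcherry+, so both groups carried the same alleles. In the MMTV-PyMT model the MMTV promoter drives the polyoma middle T oncogene in mammary epithelium. The control group, 2 libraries lettered A and B, received no radiation. The other group, 2 libraries also lettered A and B, received targeted radiation, given as 6 Gy in the design and placed at day 6 by the treatment label. All 4 titles carry a 6-day mark, and the labels do not state the time between radiation and collection, the ages, or whether A and B were separate animals. With no batch given, a batch that follows the groups and the irradiation cannot be told apart. The labels name the material as primary cancer-associated fibroblasts from breast tumours. Tumours were digested and treated with a PDGFRa antibody to detect fibroblasts, and the fraction that was sequenced is not stated. Libraries were prepared from poly(A) RNA with a non-directional kit, so reads carry no strand.

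Keratin filaments are built from obligate pairs of a type I and a type II protein, and each epithelium uses its own pairs. Simple and luminal cells make KRT8 with KRT18 and KRT19, basal and myoepithelial cells make KRT5 with KRT14, and stratified squamous cells switch to further pairs as they differentiate or are wounded. The inner root sheath, hair and nail have keratins of their own, made under the control of skin appendage programs, and in the mammary gland the luminal and basal pairs are the usual markers of the epithelial layers.

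The proximal promoters of a few members are shown for the letter run TATAAA. The inner root sheath class, which had the largest relative fall, shared this run, and the basal pair lacked its exact form. The printed Krt5 window holds the near match gataaa. The sequences are from RefSeq on GRCm38.p6, 50 bases ending just before the annotated start, written 5′ to 3′ on the gene's strand, with TATAAA in capitals.
Krt25: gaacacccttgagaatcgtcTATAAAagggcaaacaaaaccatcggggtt
Krt27: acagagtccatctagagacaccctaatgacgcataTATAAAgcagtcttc
Krt28: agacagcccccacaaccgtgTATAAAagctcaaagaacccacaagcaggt
Krt73: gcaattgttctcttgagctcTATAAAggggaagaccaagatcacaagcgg
Krt31: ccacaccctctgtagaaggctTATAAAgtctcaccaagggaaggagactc
Krt5: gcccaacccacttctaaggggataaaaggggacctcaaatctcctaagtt
Krt18: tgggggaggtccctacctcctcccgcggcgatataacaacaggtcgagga
These windows lie at chr11:99322952-99323001 (Krt25, minus strand), chr11:99351119-99351168 (Krt27, minus strand), chr11:99374904-99374953 (Krt28, minus strand), chr15:101802361-101802410 (Krt73, minus strand), chr11:100050552-100050601 (Krt31, minus strand), chr15:101712906-101712955 (Krt5, minus strand) and chr15:102028166-102028215 (Krt18, plus strand). In Krt25, Krt28 and Krt73 the match lay at positions -30 to -25 from the start, and in Krt31 at -29 to -24. In Krt27 it lay at -15 to -10.

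The search used windows of 250 bases before to 50 bases after each start, on both strands. It covered the 36 keratins with an entry in the RefSeq table. TATAAA was found in 7 of 7 inner root sheath, 7 of 10 hair and nail, 3 of 11 squamous, 2 of 4 simple, 0 of 2 basal and 0 of 2 other keratins, against 14.2% of 27025 promoters of all genes. CTTTGAA, a run recognised by LEF1, a Wnt-responsive factor of the hair follicle, was found in 5 of 10 hair and nail and 1 of 7 inner root sheath keratins. It was found in 0 of 4 simple, 0 of 2 basal, 0 of 11 squamous and 0 of 2 other keratins, against 5.27% of all promoters. The letter runs were counted separately, so matches could overlap at their ends, and a match describes letters only. Krt71 and Krt8 have TATAAA and did not pass, while Krt5 and Krt18 lack it and were lower. A link between the run and the change was not tested. The 17 keratins with no entry were Krt1, Krt4, Krt6a, Krt6b, Krt15, Krt16, Krt17, Krt19, Krt33a, Krt35, Krt80, Krt81, Krt83, Krt86, Krt87, Krt88 and Krt222.

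Total counts ranged from 13011489 to 23763830 per library, so that 1 count was worth 0.0403 to 0.0809 CPM (read counts per library size, scaled by TMM, a normalisation that takes most genes as unchanged). Keratins held 0.536% to 0.557% of all counts, between 69908 and 132377 counts per library. Although the material is labelled as fibroblasts, the summed level of 21 non-keratin epithelial genes (6180 to 7347 CPM) exceeded that of 14 fibroblast genes (620.3 to 2277 CPM) in every library, so epithelial transcripts were abundant in both groups. The fibroblast sum was 620.3 to 660.5 CPM in the unirradiated and 2252 to 2277 CPM in the irradiated libraries, and the epithelial sum 7288 to 7347 CPM and 6180 to 6337 CPM. In bulk RNA, fewer cells of a type and less RNA per cell cannot be told apart.

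After irradiation keratins changed in both directions. Krt19 of the luminal layer and Krt17 and Krt4 of stratified epithelia rose, while Krt5, Krt15, Krt16 and Krt6a fell. Of the 13 inner root sheath and hair keratins with enough counts to be tested, 11 were lower, against 32.5% of all tested genes. Of these only Krt42 and Krt87 had passed the filter on low counts through both groups, so that count is largely set by the filter. Krt8, with Krt18 the most abundant member, differed little between the groups and did not pass. Of the 53 members, 33 had enough counts to be tested. In the quasi-likelihood F-test of edgeR, adjusted over all tested genes by the Benjamini-Hochberg method with a threshold of 0.05, 29 of the 33 passed, against 66.4% of all 15961 tested genes. By direction, 6 were higher after irradiation, against 33.9% of all tested genes, and 23 were lower, against 32.5%. With a change of at least 2-fold added, 5 were higher, against 10.8%, and 18 lower, against 10.1%. These counts are read with the filter in view. Of the 23 lower members, 12 had passed the filter on low counts through both groups. The other 11 had passed it in both unirradiated but not in both irradiated libraries. These had to be lower, except Krt27, which also reached the filter in irradiated library B. Of the 6 higher members, 2 had passed through the irradiated libraries only and 4 through both groups. The libraries of the groups did not overlap for any of the 29. That is no separate result, since the 29 were selected by the test on the same libraries. The share without overlap over all tested genes is not given here. The 4 tested members that did not pass were Krt8, Krt14, Krt80 and Krt71. The other 20 members had 0 to 22 counts over the 4 libraries and were not tested.

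**Figure D1:**
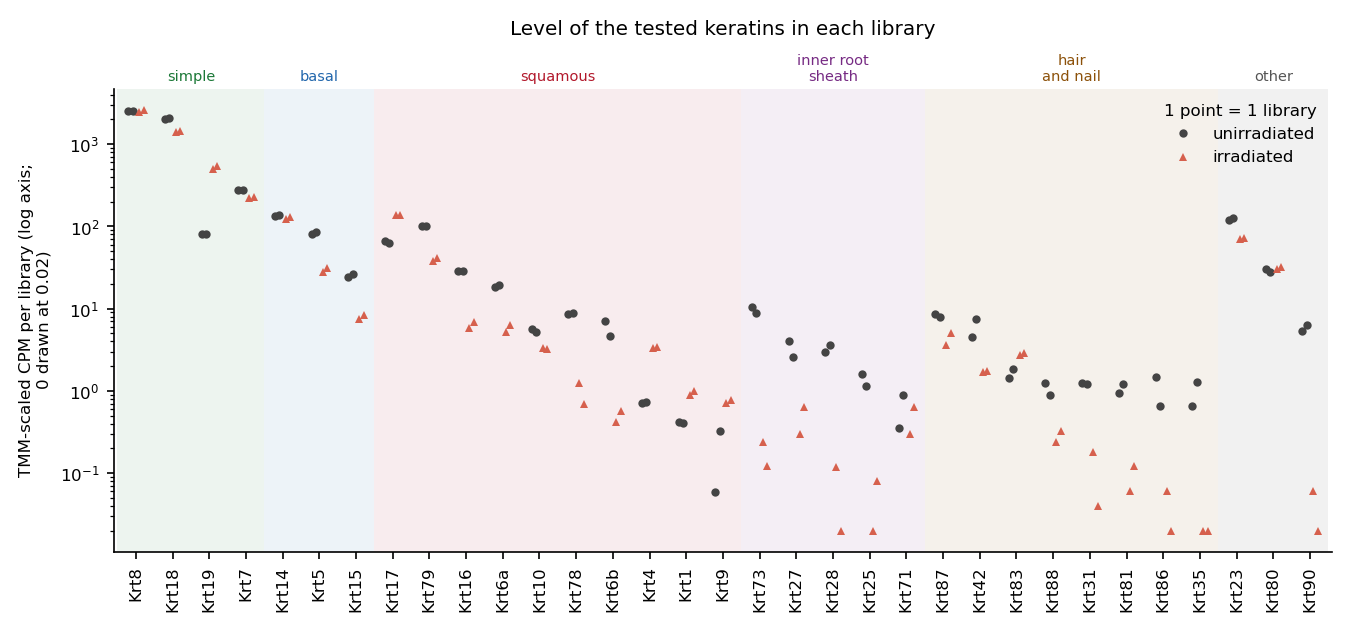
TMM-scaled CPM (log axis) of the 33 tested keratins in each library, ordered by class and by summed counts. Circles are the 2 unirradiated and triangles the 2 irradiated libraries, and values of 0 are drawn at 0.02. Krt19 sits near 80 CPM without and above 505 CPM with irradiation, and the inner root sheath keratins other than Krt71 drop below 1 CPM.

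**Figure D2:**
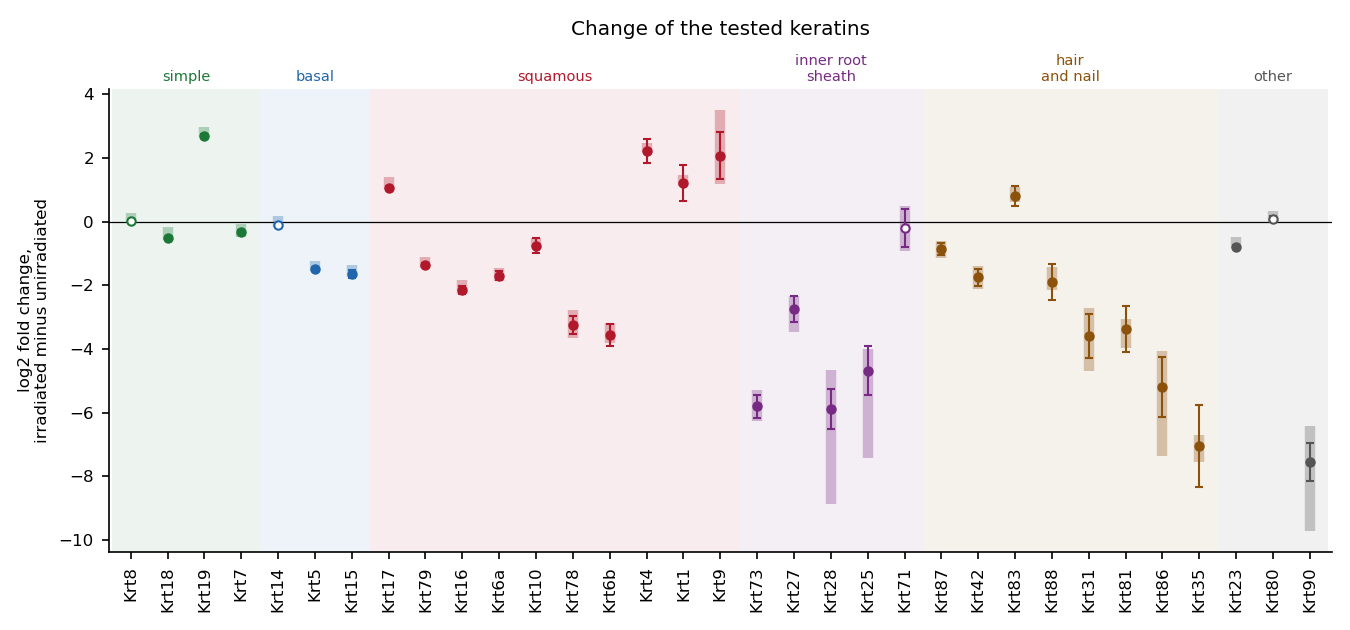
Log2 fold change (irradiated minus unirradiated) of the 33 tested keratins from edgeR, with bars of 1 standard error and pale bars for the range over the alternative settings. Filled points passed the adjusted p threshold of 0.05 and open points did not, and fitted values of members with 20 or fewer counts in a group depend on the prior count added to each value.

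The simple keratins, which line luminal and other single-layered epithelia, changed member by member. The type I gene Krt19 rose 6.53-fold, the type I gene Krt18 and the type II gene Krt7 fell, and the type II gene Krt8 did not pass. Krt8, the type II partner of KRT18 and KRT19, was at 2554 and 2523 CPM in the unirradiated and 2499.95 and 2629 CPM in the irradiated libraries. The groups overlapped, with a log2 fold change of 0.02 (SE 0.0343, adjusted p = 0.710 by edgeR). Krt8 was higher by 0.26 (log2), and passed, both when libraries were scaled to the non-keratin epithelial genes and when a trend with gene length was removed. It also passed without irradiated library A, at 0.07, and was slightly below 0 without passing in 3 settings, the lowest -0.030 under upper-quartile scaling. Of the 50-base windows of its transcript, 29.7% also occur in the processed pseudogene Krt8-ps on chromosome 7, which was at 9.93 CPM ± 1.06 (SD, n = 2) without and 11.6 CPM ± 0.261 (SD, n = 2) with irradiation.

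Krt18, the main type I partner of KRT8, was at 2031 and 2085 CPM without and 1413 and 1453 CPM with irradiation. Both irradiated libraries lay below both unirradiated libraries, and the log2 fold change was -0.52 (SE 0.0353, adjusted p = 1.03e-20 by edgeR). Krt18 was still lower, and passed, at -0.28 when scaled to the epithelial genes and at -0.17 after removal of the length trend. It did not pass a test against a change of 1.5-fold (adjusted p = 1).

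Krt19, a type I keratin without a tail domain and a luminal marker, was at 80.5 and 80.3 CPM without and 505 and 545 CPM with irradiation. The groups were far apart and the libraries within a group close together. The log2 fold change was 2.71 (SE 0.0502, adjusted p = 9.49e-51 by edgeR), from 2343 to 21901 counts, and it ranged from 2.66 to 2.97 over 14 alternative settings, all of which kept the call. None of the 50-base windows of the Krt19 transcript occurs in another gene's transcript.

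Krt7, the type II keratin of ducts and glands, was at 278 and 279 CPM without and 220.3 and 227 CPM with irradiation. The groups did not overlap, and the log2 fold change was -0.32 (SE 0.0452, adjusted p = 1.09e-08 by edgeR). Scaled to the non-keratin epithelial genes it was -0.07 and no longer passed (adjusted p = 0.138). Krt7 ends 724 bases from Krt87 on the other strand, and these reads carry no strand. Krt20, a keratin of intestinal and urothelial surface cells, had 7 counts without and 6 with irradiation and was not tested.

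Among the basal keratins, which mark the myoepithelial layer of the mammary gland and the lowest layer of the skin, Krt5 and Krt15 fell and Krt14 did not pass. Krt5, the type II basal keratin, was at 80.9 and 85.8 CPM without and 28.0 and 31.1 CPM with irradiation. Every irradiated value was lower than every unirradiated value, and the log2 fold change was -1.48 (SE 0.0721, adjusted p = 9.77e-28 by edgeR). Krt15, a type I keratin of basal and hair follicle stem cells, was at 24.0 and 26.4 CPM without and 7.46 and 8.43 CPM with irradiation. It fell in the same range as Krt5, with a log2 fold change of -1.64 (SE 0.124, adjusted p = 1.69e-18 by edgeR).

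Krt14, the type I partner of KRT5, was at 134 and 139 CPM without and 124 and 129 CPM with irradiation. The groups did not overlap but lay close together, and the log2 fold change of -0.11 did not pass (SE 0.0526, adjusted p = 0.0604 by edgeR). Its direction depended on the scaling: it was 0.13 scaled to the epithelial genes (adjusted p = 0.0243) and 0.17 after removal of the length trend (adjusted p = 0.00180). It passed as lower at -0.15 under upper-quartile scaling (adjusted p = 0.0105), at -0.13 with a filter of 1 CPM in 2 libraries (adjusted p = 0.0273) and at -0.11 with the replicate letter as a block (adjusted p = 0.0436).

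The genes of the squamous class, expressed in stratified and wounded epithelia, went in both directions. Krt17, Krt4, Krt9 and Krt1 were higher and Krt16, Krt6a, Krt6b, Krt79, Krt78 and Krt10 lower, and 7 members with 0 to 11 counts were not tested. Krt9 and Krt1 passed the filter on low counts through the irradiated libraries only and Krt6b through the unirradiated libraries only, so the direction of these 3 was fixed by that filter. Krt17, a type I keratin of the hair follicle and of wounded and basal-like tumour epithelium, was at 67.4 and 63.4 CPM without and 137 and 138 CPM with irradiation. Both irradiated libraries were above both unirradiated libraries, with a log2 fold change of 1.07 (SE 0.0582, adjusted p = 3.46e-25 by edgeR). Krt16, which like KRT17 is induced in wounded skin, was at 29.1 and 28.5 CPM without and 5.89 and 6.98 CPM with irradiation. It moved the opposite way to Krt17, with a log2 fold change of -2.14 (SE 0.125, adjusted p = 1.07e-23 by edgeR). Of the windows of the Krt16 transcript, 37.6% are shared, most with Gm11597, so its level is uncertain.

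Krt6a, a type II partner of KRT16, was at 18.6 and 19.7 CPM without and 5.17 and 6.33 CPM with irradiation. Krt6b, its close copy, was at 7.04 and 4.69 CPM without and 0.421 and 0.565 CPM with irradiation. Both fell without overlap between the groups, with log2 fold changes of -1.70 (SE 0.144, adjusted p = 1.66e-16) for Krt6a and -3.55 (SE 0.343, adjusted p = 3.31e-14) for Krt6b by edgeR. The pair share 62% of the Krt6a windows and 50.1% of the Krt6b windows with other transcripts, mostly each other's, so how their reads divide is uncertain.

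Krt79, a type II keratin of the hair canal and sebaceous duct, was at 102 CPM in both unirradiated libraries and at 38.5 and 40.9 CPM in the irradiated libraries. The libraries of each group were nearly equal, and the log2 fold change was -1.36 (SE 0.0650, adjusted p = 4.83e-28 by edgeR). Krt78, a type II keratin of stratified epithelia, was at 8.71 and 8.82 CPM without and 1.26 and 0.686 CPM with irradiation. It fell by 3.24 on the log2 scale (SE 0.270, adjusted p = 9.35e-17 by edgeR).

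The keratins of the cornifying layers were scarce. Krt10, the type I keratin of suprabasal skin, was at 5.73 and 5.18 CPM without and 3.31 and 3.23 CPM with irradiation. Its log2 fold change was -0.75 (SE 0.225, adjusted p = 0.00278 by edgeR), and it did not pass with DESeq2 (adjusted p = 0.104). Krt1, its type II partner, was at 0.418 and 0.405 CPM without and 0.902 and 1.009 CPM with irradiation, in 12 against 40 counts. The groups did not overlap, the log2 fold change was 1.21 (SE 0.553, adjusted p = 0.0481 by edgeR), and 2 of the 13 alternative settings that tested it kept the call, with adjusted p from 0.0168 to 0.294. Krt9, the type I keratin of palm and sole skin, had 1 and 4 counts without and 12 and 19 counts with irradiation, a ratio of 4.36 (95% exact interval 1.68 to 14.4). It passed (adjusted p = 0.0102 by edgeR) but not with DESeq2 (adjusted p = 0.171), without unirradiated library A (adjusted p = 0.267) or without irradiated library B (adjusted p = 0.0555), and its fitted log2 fold change of 2.08 was 3.52 without unirradiated library B.

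Krt4, the type II keratin of the upper layers of internal stratified epithelia such as the oesophagus, was at 0.716 and 0.728 CPM without and 3.37 and 3.43 CPM with irradiation. The libraries of each group agreed closely, and the log2 fold change was 2.23 (SE 0.370, adjusted p = 3.85e-07 by edgeR), passing in all 14 alternative settings. Krt13, the type I partner of KRT4, had 4 and 3 counts without and 0 and 1 counts with irradiation and was not tested. The pair therefore had 21 and 7 counts without irradiation and 141 and 1 with it.

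The inner root sheath keratins, which form the sheath that moulds the growing hair, fell to few counts after irradiation. Their counts summed to 345 and 228 in the unirradiated and 16 and 37 in the irradiated libraries. Of the 7 members, 4 of the 5 tested were lower and the 2 untested, Krt26 and Krt72, had 34 counts without and 0 with irradiation. Krt73, a type II member, was at 10.6 and 8.82 CPM without and 0.241 and 0.121 CPM with irradiation. That was 286 against 7 counts, a ratio of 58.1 after scaling (95% exact interval 27.8 to 146, counting error only, adjusted p = 6.41e-22 by edgeR). Krt28, a type I member, was at 2.98 and 3.64 CPM without and 0.120 and 0 CPM with irradiation. In 95 against 2 counts the ratio was 67.5 (95% exact interval 18.2 to 566, adjusted p = 1.62e-12 by edgeR). Krt27, also type I, was at 4.06 and 2.59 CPM without and 0.301 and 0.646 CPM with irradiation, and it fell by 2.74 on the log2 scale (SE 0.394, adjusted p = 1.16e-08 by edgeR). Without irradiated library B its change was -3.46. Krt25, the remaining type I member tested, had 27 and 14 counts without and 0 and 2 with irradiation, a ratio of 29.2 (95% exact interval 7.57 to 249, adjusted p = 3.57e-07 by edgeR).

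Krt71, a type II sheath keratin, stood apart. It had 6 and 11 counts without and 5 and 16 counts with irradiation, the groups overlapped, and its log2 fold change was -0.20 (SE 0.595, adjusted p = 0.777 by edgeR). The fitted changes of Krt25 and Krt28 moved to -7.43 without irradiated library B and to -8.87 without irradiated library A, since the remaining irradiated library had 0 counts, and that of Krt71 ranged from -0.93 without irradiated library B to 0.498 without unirradiated library B. Of the 4 lower members, Krt25, Krt28 and Krt73 passed the filter on low counts through the unirradiated libraries only, so their direction was fixed by that filter. Krt27 also reached the filter in irradiated library B, with 16 counts, so its direction was not fixed.

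Hair and nail keratins, which fill the cortex and cuticle of the shaft and the nail plate, were scarce in every library. Of the 17 members 8 were tested, 7 were lower and 1 was higher, and the 9 untested members summed to 44 counts without and 13 with irradiation. Krt87 was at 8.53 and 7.85 CPM without and 3.67 and 5.12 CPM with irradiation, a log2 fold change of -0.86 (SE 0.192, adjusted p = 8.15e-05 by edgeR). It did not pass the edgeR test against 1.5-fold (adjusted p = 0.0893). Of the Krt87 windows, 36.9% are shared, most with Gm49425. The far more abundant Krt7 ends 724 bases away on the other strand, so the level of Krt87 is uncertain. Krt42, a type I keratin of the nail, was at 4.47 and 7.52 CPM without and 1.68 and 1.73 CPM with irradiation, a log2 fold change of -1.75 (SE 0.269, adjusted p = 6.29e-08 by edgeR). Krt83, a type II cuticle and cortex keratin, was the member that was higher, at 1.43 and 1.86 CPM without and 2.77 and 2.91 CPM with irradiation. Its log2 fold change was 0.82 (SE 0.316, adjusted p = 0.0201 by edgeR), and it was not called by DESeq2 (adjusted p = 0.193), without unirradiated library A (adjusted p = 0.184) or without irradiated library B (adjusted p = 0.105).

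The remaining 5 called hair keratins rested on few counts and passed the filter on low counts through the unirradiated libraries only, so their direction was fixed by that filter. Krt35, an early type I keratin of the hair matrix, had 11 and 16 counts without and 0 in both libraries with irradiation, at least 12.8-fold lower against a floor of 3 counts over the irradiated group. Krt31, a type I cortex keratin, had 36 counts without and 4 with irradiation, a ratio of 12.8 (95% exact interval 4.59 to 49.5). Krt86 and Krt81 are type II cortex keratins that share over 40% of their windows, mostly with each other. Krt86 had 33 against 1 counts (ratio 46.9, interval 7.86 to 1909) and Krt81 31 against 4 (ratio 11.02, interval 3.90 to 43.0). Krt88 had 32 against 12 counts (ratio 3.79, interval 1.90 to 8.08) and was not called by DESeq2 (adjusted p = 0.10004) or without unirradiated library A (adjusted p = 0.0982). All of these values were lower in each irradiated than in each unirradiated library, and their adjusted p ranged from 2.00e-06 to 0.00262 in edgeR. Without irradiated library A the fitted log2 fold changes were -4.70 for Krt31 and -7.35 for Krt86, against -3.58 and -5.19 with all libraries, and without irradiated library B that of Krt81 was -3.96 against -3.37.

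The keratin-associated proteins, which cross-link hair keratins and are no members, held 99 counts in the irradiated libraries, all of them from Krtap17-1. Krtap17-1 had 27 and 14 counts without and 37 and 62 with irradiation and was higher (adjusted p = 0.0445 by edgeR), from 1.61 and 1.13 CPM to 2.23 and 2.502 CPM. The other 56 genes summed to 143 and 103 counts without and 0 in both libraries with irradiation. Of these 20 had 0 counts in all 4 libraries, and Krtap8-1 was tested and was lower, with 40 counts without and 0 with irradiation. Krtap8-1 passed the filter on low counts through the unirradiated libraries only, so its direction was fixed by that filter. Trichohyalin (Tchh), which hardens the inner root sheath, fell from 50.1 and 52.3 CPM to 15.1 and 12.9 CPM, a log2 fold change of -1.88 (SE 0.0930, adjusted p = 2.14e-27 by edgeR). By point values it fell less than Krt73, Krt28 and Krt25, whose direction was fixed by the filter on low counts, and less than Krt27 (-2.74). It fell more than Krt71 (-0.20), and none of these differences was tested.

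Of the keratins outside these classes, Krt90 was left with 1 count after irradiation. It was at 5.37 and 6.39 CPM without and 0.0601 and 0 CPM with irradiation, in 169 against 1 counts, and it too passed the filter through the unirradiated libraries only. The ratio was 240.3 (95% exact interval 42.6 to 9548, adjusted p = 6.12e-18 by edgeR), and the fitted log2 fold change of -7.54 became -9.70 without irradiated library A. Krt23, a type I keratin of glandular epithelia, was at 120.7 and 126 CPM without and 69.9 and 72.7 CPM with irradiation. The groups did not overlap and it fell by 0.79 on the log2 scale (SE 0.0576, adjusted p = 4.23e-19 by edgeR). Krt80, a type II keratin found in many epithelia, was at 30.4 and 28.2 CPM without and 30.3 and 32.1 CPM with irradiation. Its groups overlapped, its log2 fold change was 0.09 (adjusted p = 0.382 by edgeR), and among the settings run it passed only when scaled to the epithelial genes, at 0.33, and was -0.05 after removal of the length trend.

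Summed by class, the keratin pool stayed mostly simple. Simple keratins held 87.8% to 87.9% of keratin CPM without and 90.9% with irradiation in both libraries. The basal share was 4.25% and 4.44% without and 3.11% and 3.15% with irradiation. The squamous share was 4.28% and 4.15% against 3.86% and 3.78%, with Krt79, Krt16 and Krt6a lower and Krt17 higher within it. Its direction turned when genes were weighted per kilobase, to a log2 ratio of 0.26 with the deposited length and 0.027 with the principal transcript. The inner root sheath share was 0.366% and 0.326% against 0.0189% and 0.0280%, and the hair and nail share 0.387% and 0.419% against 0.176% and 0.198%. The summed level of the inner root sheath class was 19.5 CPM ± 1.51 (SD, n = 2) without and 1.23 CPM ± 0.375 (SD, n = 2) with irradiation, 15.9-fold lower. The hair and nail sum was 22.7 CPM ± 1.37 (SD, n = 2) against 9.77 CPM ± 1.14 (SD, n = 2), 2.33-fold lower. The basal sum was 245 CPM ± 8.80 (SD, n = 2) against 164 CPM ± 6.47 (SD, n = 2), 1.498-fold lower. The simple sum was 4955 CPM ± 17.1 (SD, n = 2) against 4746 CPM ± 153 (SD, n = 2), a log2 ratio of -0.06 that was 0.18 when scaled to the epithelial genes. The sums were not tested and are given as descriptions; an exact permutation test of 2 against 2 libraries cannot give a two-sided p below 0.333.

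**Figure D3:**
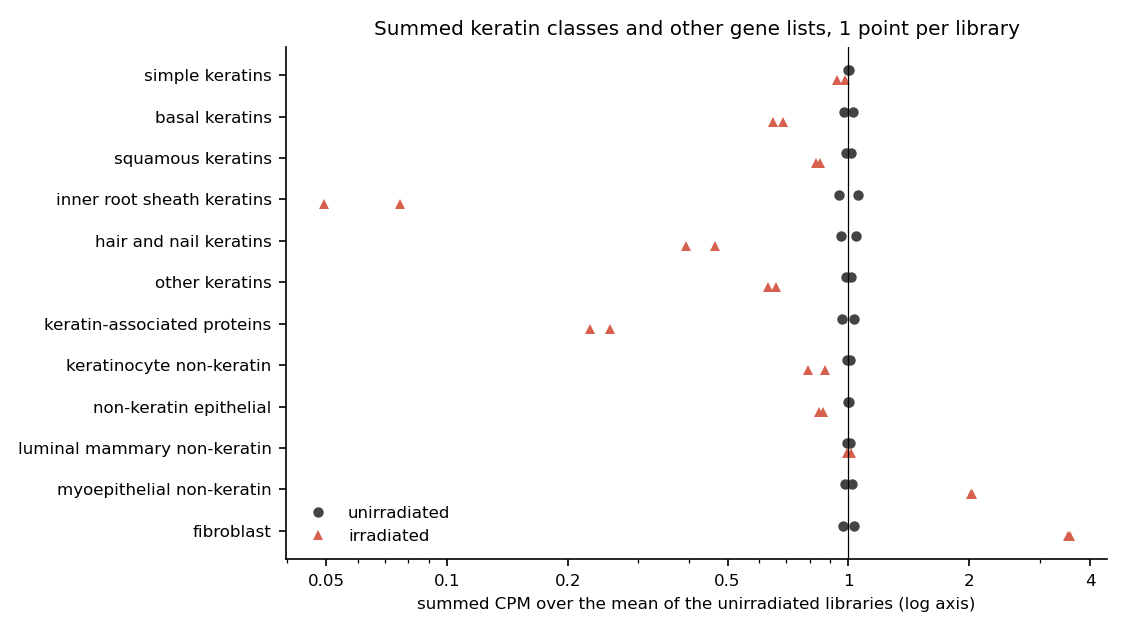
Summed TMM-scaled CPM of each keratin class and of 6 other gene lists, divided by the mean of the 2 unirradiated libraries (log axis), 1 point per library. Inner root sheath keratins sit farthest left, keratin-associated proteins and hair keratins next, and fibroblast genes are above 3 times the unirradiated mean.

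Levels of different keratins were compared per kilobase of the principal transcript. Krt18 ranked 1 and Krt8 ranked 2 without irradiation, at 1432 ± 26.6 and 1296 ± 11.2 CPM per kilobase (SD, n = 2), and the order was turned with irradiation, at 997 ± 20.04 and 1309.8 ± 46.7 (SD, n = 2). Krt19 moved from rank 6 to rank 3, at 51.0 ± 0.0875 and 333 ± 17.6 CPM per kilobase (SD, n = 2). Without irradiation Krt14 (80.3 ± 2.19) and Krt23 (78.8 ± 2.43), ranked 3 and 4, lay within their spread of each other. The length used matters for some members: per kilobase of the deposited gene length Krt7 was at 39.5 rather than 68.0 CPM without irradiation, and Krt79 at 21.5 rather than 48.6.

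Within pairs, the type II to type I balance shifted. The ratio of Krt8 to Krt18 per kilobase was 0.923 and 0.888 without and 1.30 and 1.33 with irradiation. The ratio of Krt19 to Krt18 was 0.0362 and 0.0351 against 0.326 and 0.342. Summed over the simple class, type I transcripts were at 1483 ± 26.7 without and 1330.4 ± 37.7 CPM per kilobase with irradiation, and type II transcripts at 1364 ± 11.1 and 1364 ± 47.8 (SD, n = 2). Under TMM scaling Krt18 thus lost more per kilobase than Krt19 gained. Which of the 2 amounts is larger depends on the scaling, since scaling to the epithelial genes made the fall of Krt18 smaller and the rise of Krt19 larger. The ratio of Krt5 to Krt14 was 0.467 and 0.477 without and 0.175 and 0.187 with irradiation, so the transcripts of this basal pair moved apart. The ratio of Krt6a to Krt16 was 0.440 and 0.474 against 0.603 and 0.623, and that of Krt6b to Krt17 0.0725 and 0.0513 against 0.00213 and 0.00285. The ratio of Krt17 to Krt14, both type I, was 0.552 and 0.4996 against 1.21 and 1.17, and that of Krt1 to Krt10 0.0622 and 0.0666 against 0.233 and 0.267. In each of these ratios the groups did not overlap, and the share without overlap among ratios of other genes is not given here. Krt6b passed the filter on low counts through the unirradiated libraries only and Krt1 through the irradiated libraries only. The separation of the ratios that hold them is therefore largely set by that filter. The ratio of Krt6a to Krt16 rests on transcripts with many shared windows. A ratio within a library does not depend on the scaling of the library, and none was tested.

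**Figure D4:**
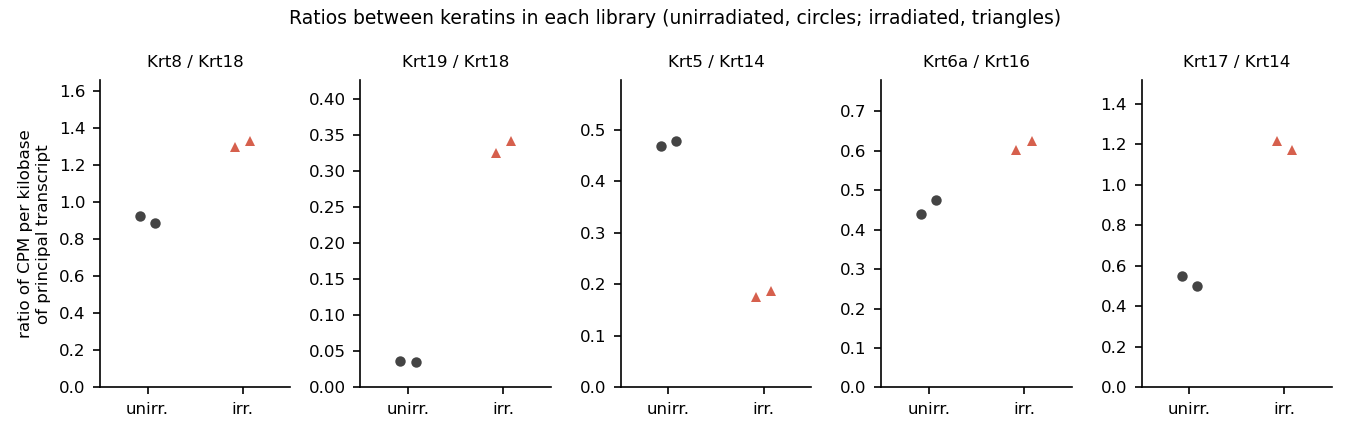
Ratios of CPM per kilobase of principal transcript between keratins, 1 point per library (unirradiated circles, irradiated triangles; each axis starts at 0 and has its own range). Krt8 over Krt18 and Krt17 over Krt14 pass from below 1 to above 1, and Krt5 over Krt14 falls from above 0.46 to below 0.19.

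Other genes of the filament system and of keratin control were read beside the members, against 33.9% higher and 32.5% lower among all tested genes. Of 17 other intermediate filament genes 14 were tested, of which 7 rose and 3 fell (median log2 fold change 0.55, against -0.00417 over all tested genes). Synemin (Synm), a filament protein of muscle and mesenchymal cells, rose by 2.504 on the log2 scale, and peripherin (Prph), a neuronal filament, fell by 2.73 on the log2 scale. Of 18 genes for linkers and keratin-binding proteins 17 were tested, with 10 higher and 3 lower (median 0.18), and 6 higher and 4 lower after removal of the length trend. Desmoplakin (Dsp), which anchors keratin filaments at desmosomes, rose by 0.70 (SE 0.0470, adjusted p = 8.12e-21 by edgeR), and the keratin-binding Fam83h by 0.64. Of 24 transcription factor genes of keratin-expressing epithelia 22 were tested, with 3 higher and 15 lower (median -0.55), and 8 higher and 13 lower when scaled to the epithelial genes. Ovol1 and Klf4, factors of epidermal differentiation, fell by 1.77 and 1.54 on the log2 scale, Grhl1, which regulates desmosomal and hair anchoring genes, fell by 1.26, and Foxa1, a luminal factor, rose by 1.29. Trp63, the basal factor that controls Krt5 and Krt14, was at 24.4 and 22.0 CPM without and 26.2 and 23.2 CPM with irradiation and did not pass (adjusted p = 0.556 by edgeR). The hair factors Hoxc13 and Foxn1 had 10 against 1 and 9 against 8 counts and were not tested. Lef1, the hair follicle factor named above, was tested and was lower, with a log2 fold change of -1.04 (SE 0.219, adjusted p = 3.52e-05 by edgeR). Msx2 and Dlx3 of the same list were lower too, at -0.89 and -1.04.

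Markers of the cells that could carry these keratins moved as well, and their part in the keratin results was not tested. Their counts are again to be set against 33.9% higher and 32.5% lower among all tested genes, and their medians against -0.00417. Of 23 non-keratin keratinocyte genes 13 were tested, with 2 higher and 10 lower (median -1.39), a summed level of 313 to 319 CPM without and 250.05 to 276 CPM with irradiation, and Flg2, Sprr3 and Lce3c at 0 in all libraries. Dsg3, a desmosomal cadherin of basal keratinocytes, fell by 2.57 and the cornified envelope gene Sprr1a rose by 2.14 on the log2 scale. Of 14 non-keratin myoepithelial genes 9 were higher and 1 lower (median 0.96), with a sum of 339 to 353 CPM against 700.0 to 704 CPM, and the contractile genes Acta2 and Actg2 rose by 2.11 and 2.33. The largest share of this sum was Sparc, a matrix protein gene that fibroblasts also express, at 205 CPM ± 6.11 without and 389.7 CPM ± 7.37 with irradiation (SD, n = 2). Trp63, Tagln, Cdh3 and Lgr5 did not pass and Nrg1 was lower. Which cells carried the contractile and other transcripts of this list was not measured. Of 19 non-keratin luminal genes 14 were higher and 3 lower (median 1.253), with a sum of 7033 to 7147 CPM against 7034 to 7198 CPM. Of these Csn2, a milk casein, rose by 7.73 and Aldh1a3, a luminal progenitor marker, by 3.00 on the log2 scale, and Csn3, Gata3 and Prom1 fell by 0.85, 0.78 and 0.85. Within the sum Csn3, a milk casein, was at 5791 CPM ± 48.7 without and 3203 CPM ± 102 with irradiation, and Ltf, the milk protein lactoferrin, at 309 CPM ± 8.98 and 2105 CPM ± 24.8 (SD, n = 2). Of 21 non-keratin epithelial genes 4 were higher and 14 lower (median -0.24), and 8 were higher and 7 lower when scaled to themselves. Of 10 sebaceous gland genes 6 were tested, with 2 higher and 2 lower, a sum of 31.0 to 32.0 CPM against 29.5 to 36.0 CPM, and Awat1 at 0. Of 14 fibroblast genes 12 were higher and 0 lower (median 1.91), with none at 0 in the libraries. Of 11 macrophage genes 10 were higher and 0 lower, of 10 endothelial genes 9 were higher and 0 lower, and of 9 lymphocyte and leukocyte genes 7 were tested, with 1 higher and 5 lower.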

How the data were processed

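Poly(A) RNA of 4 libraries was measured. The values analysed are raw counts per gene that the authors deposited, beside gene lengths in bases per the file headers. The submitters' processing notes name STAR 2.5, HTSeq 0.6.1, DESeq2 and the mm10 genome, without counting settings. Groups came from the labels. Counts were filtered (filterByExpr), scaled by TMM and tested over all genes with edgeR 4.0.16 in R 4.3.3 (quasi-likelihood F-test, Benjamini-Hochberg, threshold 0.05; SE from the fold change and F). The p-values measure the spread between libraries, which may be technical: the median chi-square between libraries of a group was 2.11 and 2.14 times counting noise. For each gene that spread was estimated mostly from all genes together, with 60.0 prior against 2 residual degrees of freedom. For members with 20 or fewer counts in a group, count ratios have 95% exact binomial intervals, for counting error only. Transcript lengths and shared 50-base windows came from GENCODE M21. Alternatives were scaling, filters, DESeq2 1.42.0, length trend, block, left-out libraries and thresholds. Values per library are given for called members with at least 1 CPM on average and textbook pairs, and for up to 4 called genes per list by size of change, some named here. Trp63, Hoxc13, Foxn1, Lef1, Msx2, Dlx3, Krtap8-1, Sparc, Tagln, Cdh3, Lgr5, Nrg1, Csn3, Gata3, Prom1 and Ltf were chosen after their values were seen. Members and lists were chosen with earlier results of these data known. The script was checked on simulated counts.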

Additional observations from a re-analysis of the deposited data

How the results depend on the processing

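Over the alternative settings, 453 values of tested keratins were recomputed, of which 411 kept direction and side of the threshold, 26 no longer passed, 7 newly passed and 9 changed sign. Of the 9, the 2 that passed were of Krt14, at 0.13 (log2) scaled to the epithelial genes and 0.17 after removal of the length trend. The 7 that passed in neither setting were of Krt8 (-0.030 with upper-quartile scaling, -0.0030 with the 1 CPM filter, and -0.011 to 0.065 with a library left out), Krt80 (-0.051 after removal of the length trend) and Krt71 (0.037 scaled to the epithelial genes, and -0.93 to 0.498 with a library left out, above 0 without unirradiated library B or irradiated library A). The count of higher keratins, 6, was 9 scaled to the epithelial genes, 7 after removal of the length trend, 3 with DESeq2 and 3 to 6 with a library left out, at 3 without unirradiated library A or irradiated library B. The count of lower keratins, 23, ranged from 21 to 24 with a library left out and was 19 in the test against 1.5-fold and 27 without a filter. Scaling to the epithelial genes moved the median of all genes to 0.24 and the calls of all genes from 5409 higher and 5184 lower to 7663 and 3208. Under it the log2 ratios of the class sums were 0.18 (simple), -0.34 (basal), -0.011 (squamous), -0.98 (hair and nail) and -0.39 (other), against -0.06, -0.58, -0.25, -1.22 and -0.63, and upper-quartile scaling gave -0.30 for squamous. As shares of all keratins per kilobase of the deposited length they were 0.030 (simple), -0.40 (basal) and 0.26 (squamous), and per kilobase of the principal transcript, an alternative chosen after seeing the data, 0.039, -0.41 and 0.027. A share has all keratins as its denominator, and the cause of these shifts was not tested. The deviations between libraries A and B were nearly uncorrelated between the groups (correlation 0.01), which cannot tell whether the letters mark shared animals or batches. The fit with the replicate block called 5 keratins higher and 24 lower, with Krt1 lost and Krt14 gained. Depth limits the 20 untested members and those with ratios from few counts, where 1 count moves a value strongly.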
